A study of Mus musculus with 6 samples.

Results

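The genes described here are 40 genes of collagens and the extracellular matrix, out of the 31053 genes of the deposited single-cell count table. The list was chosen with earlier results of these data known. Each of the 40 genes had at least 1 UMI (unique molecular identifier, the tag that lets each captured RNA molecule be counted once). They were read across the 12 cell labels and the 4 libraries of that table. They were also read across a split of the cells labelled Stroma, made on the share of a cell's UMIs that came from Col3a1. The cells came from CT26 tumors, a transplanted colorectal carcinoma line of mice, grown in female Balb/c hosts and enriched for tumor-infiltrating leukocytes with CD45 beads, so cells without CD45 were those that the enrichment had not removed. The 6 samples fell into 3 groups of 2, which received vehicle or a low or high dose of a PD-1 GITR-L bispecific antibody. It joins an antibody to PD-1, an inhibitory receptor of T cells, with the ligand of the T cell costimulator GITR. The treatment labels give 30 mg/kg for both doses, while the treatment protocol gives 10 mg/kg for the low and 30 mg/kg for the high dose. For its single-cell data the paper names a different dose, set against an isotype control. The 4 libraries of the table are fewer than the 6 samples, and which samples they hold is not stated. Tumors were taken 5 days after treatment.

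The matrix is the scaffold of a tissue. Fibrillar collagens are secreted as procollagens, trimmed and assembled into fibres that small proteoglycans coat and that lysyl oxidases crosslink, while type IV collagen, laminins, nidogens and perlecan form the sheets called basement membranes. Fibroblasts are the main source of fibrillar collagen in most solid tumors, and carcinoma cells and macrophages can add glycoproteins of their own. The 40 genes are grouped below by these roles.

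The 4 libraries, named M1, M2, M5 and M6 in the table, held 7160 to 10294 cells and 158337797 to 315577167 UMIs each, 33961 cells in all. The library names were not matched to the sample labels, so the vehicle and bispecific groups could not be compared, and each value is given by library, with no test. Stroma was the label of 15687 cells, with a median of 40692 UMIs per cell, against 7621 UMIs for the other labels together. Of the 33850 cell barcodes, 111 occurred in more than 1 library.

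The split placed 244 Stroma cells at or above a Col3a1 share of 0.001 of their UMIs (Col3a1-high) and 15443 below it (Col3a1-low). Of the Col3a1-high cells 129 came from M1, and M2, M5 and M6 gave 46, 34 and 35 of them. They made up 1.56% of Stroma and 0.72% of all cells. Their median UMI count was 27072, against 40996 for the Col3a1-low cells. The split uses Col3a1 alone, so its level between the classes is a property of the rule, and since every other gene was read in the same cells, the differences below are descriptions and not tests. Of the Stroma cells, 7921 had no Col3a1 UMI at all, and shares ran without a gap across the threshold.

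**Figure D1:**
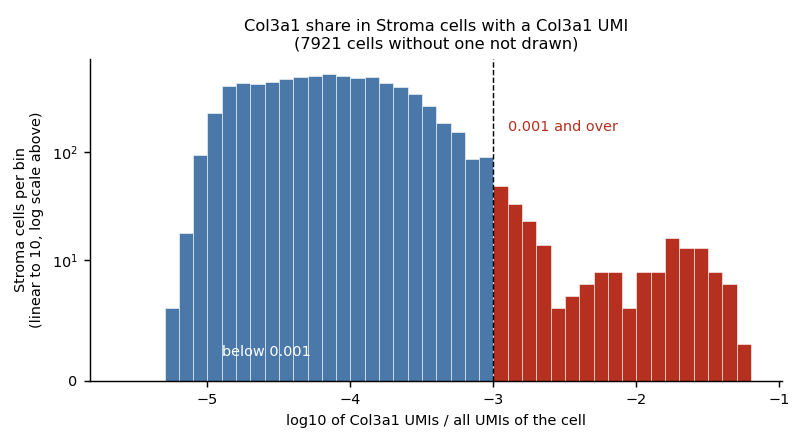
Histogram of the Col3a1 share of each Stroma cell with a Col3a1 UMI, on a log10 axis, with the number of cells per bin on a scale that is linear to 10 and logarithmic above. Bars left of the dashed line are the Col3a1-low cells and bars right of it the 244 Col3a1-high cells. Cell numbers fall through the threshold of 0.001 and form a second rise above 0.01, where 80 cells lie.

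The Stroma label was read beside marker lists chosen with earlier results of these data known. The counts below therefore describe the classes and do not test them. Of 10 fibroblast markers outside the matrix list, 9 were at least 2-fold higher in Col3a1-high than in Col3a1-low cells in every library, with summed levels of 1861 to 3145 against 434 to 542 CPM (counts of the gene per 1e+06 UMIs of the cells summed), where 8.47% of all genes tested were higher by this rule. Among them, Pdgfra, a growth factor receptor of fibroblasts, stood at 153 against 6.82 CPM, and Pi16 at 252 against 0.35 CPM. The tenth, Cd34, stood at 238 against 280 CPM. Pericyte and smooth muscle markers passed in 2 of 5 genes with enough UMIs (Acta2 and Cspg4), with summed levels of 121 to 350 against 2.10 to 3.42 CPM. None of the 6 endothelial markers passed, at summed levels of 5.06 to 12.2 against 4.71 to 8.74 CPM, and Cldn5, Emcn and Vwf had a UMI in 0 of the 244 Col3a1-high cells, which allows a UMI in up to 1.23% of such cells and sets no limit on cells that express these genes below detection. Of 8 epithelial markers, Krt18 (3.06 against 28.5 CPM) and Krt20 (4.58 against 40.01 CPM) were lower and Krt19 (10.7 against 0.60 CPM) higher in Col3a1-high cells, and Cldn4, Cldn7 and Cdx2 had no UMI there. The 8 epithelial markers summed to 9.44 to 24.4 CPM in Col3a1-high and 55.7 to 83.9 CPM in Col3a1-low cells, where Epcam, a surface protein of most epithelia, stood at 1.71 CPM. Of 8 leukocyte markers only Cd3e, a T cell receptor subunit, passed, at 104 against 1.66 CPM, with summed levels of 127 to 269 against 32.3 to 47.4 CPM and Xcr1 without a UMI in Col3a1-high cells. Its part in the results was not tested. Ptprc, which encodes CD45, had a UMI in 13.1% of Col3a1-high, 16.5% of Col3a1-low and 95.4% of the other cells. Xist, the RNA that coats the inactive X chromosome of female cells, stood at 418 CPM in Col3a1-high and 14.7 CPM in Col3a1-low cells. No cell type name is given to either class here.

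The Col3a1-high cells held 0.79% of all UMIs but 11.2% of the UMIs of the 39 matrix genes other than Col3a1 (95% Wilson interval 11.16 to 11.24%, counting error only). By library that share ran from 7.16% (M2) through 11.5% (M1) and 13.3% (M6) to 17.4% (M5). Col3a1-low cells held 84.6% of those UMIs and all other labels 4.18%. The 40 genes together made up 5.13% of the UMIs of a Col3a1-high cell pool, 0.33% of the Col3a1-low pool and 0.05% of the other labels. These shares include Col3a1, which set the classes. Without it, the 39 genes summed to 40978 CPM in Col3a1-high cells, 3253 CPM in Col3a1-low cells and 494 CPM in the other labels.

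The genes differed widely in where their UMIs lay. For 13 genes, Col3a1 itself included, over 50% of all UMIs came from the 244 Col3a1-high cells, as they did for 1.47% of all 17468 genes with at least 30 UMIs. They were led by Col5a2 (92.0%), Lox (89.3%), Fbln1 (86.6%), Col12a1 (80.2%) and Col15a1 (80.0%), followed by Postn, Loxl1, Tnc, Lama4, Col5a3, Col3a1, Fbn1 and Col6a3 (78.8 to 65.7%). For 22 genes over 50% came from Col3a1-low cells (78.1% of those 17468 genes), and the Col3a1-high share was under 5% for 10 genes of that group: Fn1, Col4a2, Col4a1, Mgp, Serpinh1, Col18a1, Lamb1, Lamc1, Pcolce and Col8a1 (4.60 to 1.42%). The remaining 5 genes, Col1a1, Vcan, Loxl2, Nid2 and Thbs1, had at most 50% in either Stroma class. The median Col3a1-high share over the 39 genes was 21.4%.

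**Figure D2:**
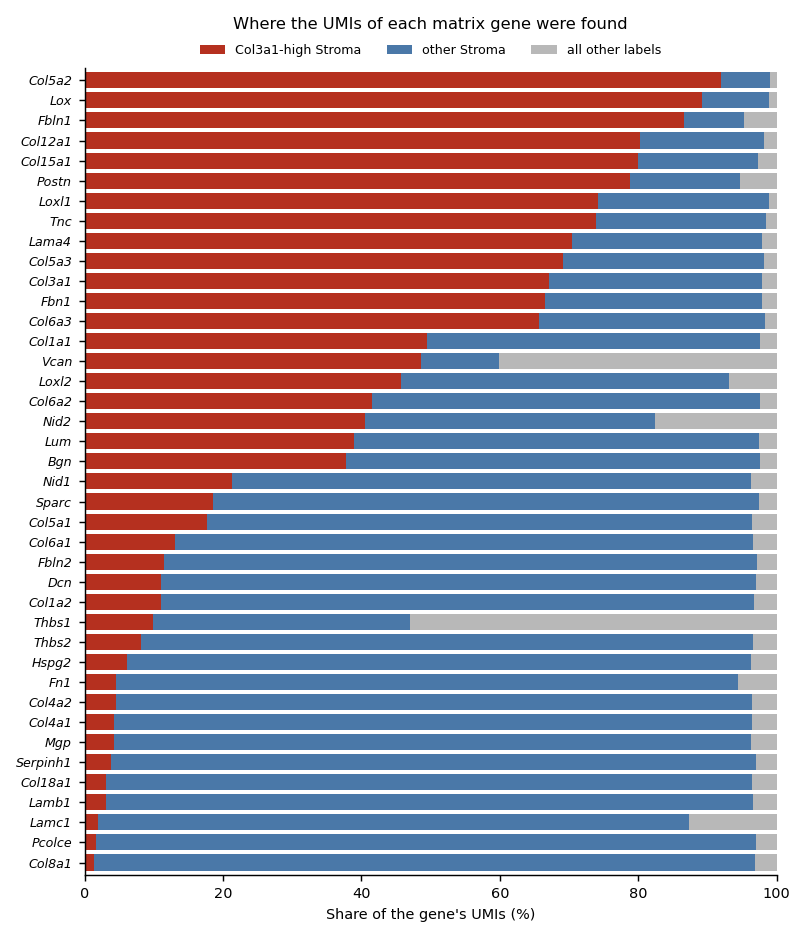
Stacked bars of the percent of each gene's UMIs found in Col3a1-high Stroma, other Stroma and all other labels, for the 40 genes over all 33961 cells. The bars run from Col5a2, with 92.0% in Col3a1-high cells, to Col8a1, with 1.42%, and only Thbs1, Vcan, Nid2 and Lamc1 have over 10% in the other labels.

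The sequence upstream of these genes was read from RefSeq windows (GRCm38.p6), in which 26 of the 40 genes were found. Of the group with over 50% of UMIs in Col3a1-high cells 3 of the 8 genes found had the letters TATAAA, the core of the TATA box, on the gene's strand within 250 bases before a start site, and 0 of 17 genes of the group with over 50% in Col3a1-low cells did (Thbs2 had them on the opposite strand). Col3a1, whose place in the first group is set by the split, is 1 of those 3, and without it the count was 2 of 7, Postn and Tnc. Some genes had more than 1 window. Counted by window, TATAAA was found in 36.4% of the 11 windows of the first group, Col3a1 included, and in 0% of the 19 of the second. The 2 windows of Tnc overlap and hold the same TATAAA match, which the share by window therefore counts more than once. Over all 32851 windows of the table the share was 7.59%. The shares of all windows given here and below count windows and not genes. A match was counted anywhere in the 250 bases, and its distance from the start was not considered. GGGCGG, the GC box bound by Sp1, was found on either strand for 4 of those 8 and 13 of those 17 genes (32.7% of all windows), and CCAAT on either strand for 1 of 8 and 7 of 17 (33.9% of all windows). TGANTCA, the core of AP-1 sites, was found on either strand for 0 of 8 and 1 of 17 genes, in the latter at Col6a1 (6.75% of all windows). The median GC content of the windows was 52.0% in the first group, 62.0% in the second and 52.4% overall. The genes were few and their windows chosen by the match to the table, so these counts are a description. The 150 bases before the start are printed for the 3 genes with TATAAA and, for contrast, for the 3 genes of the second group with the highest Stroma levels whose windows overlap no annotated exon, Serpinh1, Col8a1 and Thbs2, with TATAAA on the gene's strand, GGGCGG or its reverse complement CCGCCC, and CCAAT or its reverse complement ATTGG in capitals. Overlapping matches run together.
Col3a1, chr1:45311388-45311537, plus strand: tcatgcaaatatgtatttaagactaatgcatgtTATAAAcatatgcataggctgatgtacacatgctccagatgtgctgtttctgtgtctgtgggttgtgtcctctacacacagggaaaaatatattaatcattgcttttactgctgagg
Postn, chr3:54360957-54361106, plus strand: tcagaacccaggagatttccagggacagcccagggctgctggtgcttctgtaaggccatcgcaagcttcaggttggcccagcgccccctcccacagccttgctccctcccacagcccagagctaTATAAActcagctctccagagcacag
Tnc, chr4:64047016-64047165, minus strand: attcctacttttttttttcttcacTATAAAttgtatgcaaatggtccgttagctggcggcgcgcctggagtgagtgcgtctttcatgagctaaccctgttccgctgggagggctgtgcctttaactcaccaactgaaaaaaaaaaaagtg
Serpinh1, chr7:99353240-99353389, minus strand: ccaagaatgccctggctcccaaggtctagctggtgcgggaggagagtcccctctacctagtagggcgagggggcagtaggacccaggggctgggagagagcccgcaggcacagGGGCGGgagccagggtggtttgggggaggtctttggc
Col8a1, chr16:57754738-57754887, minus strand: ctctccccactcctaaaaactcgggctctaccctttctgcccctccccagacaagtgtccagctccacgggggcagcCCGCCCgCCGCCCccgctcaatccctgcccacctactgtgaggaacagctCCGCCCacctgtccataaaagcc
Thbs2, chr17:14694263-14694412, minus strand: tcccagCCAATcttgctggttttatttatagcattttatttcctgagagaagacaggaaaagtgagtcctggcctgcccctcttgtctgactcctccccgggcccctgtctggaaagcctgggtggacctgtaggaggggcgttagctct
A match of letters is not a bound site.

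A gene was counted as higher in Col3a1-high cells where its CPM, with 1 CPM added to both sides, was at least 2-fold that of Col3a1-low cells in each of the 4 libraries. All 39 genes other than Col3a1 passed the minimum of 30 UMIs in Stroma. Of them 35 were higher and 0 lower, where 8.47% of all 16192 genes tested were higher and 2.69% lower. The members' median pooled log2 ratio, with 1 CPM added to both sides, was 4.58, and that of all genes tested was 0.01. On pooled CPM without an added count, 27 genes were at least 10-fold and 13 at least 100-fold higher, and 10 were under 5-fold, where these bounds held for 6.98%, 2.45% and 89.9% of all genes tested. Each of the 39 genes also had over 30 UMIs in Col3a1-low cells alone, from 96 for Fbln1 upwards. The 4 genes that were not counted were Col8a1, Lamc1, Mgp and Pcolce. Without the Stroma cells that had a Ptprc UMI 34 genes were higher (8.23% of all genes tested), Col18a1 no longer being counted. When Stroma was split instead on a UMI of Pdgfra, Pdgfrb or Dpt, the 8708 cells with one were higher for 20 genes (1.03% of all genes tested) and held 69.1% of the UMIs of the 39 genes.

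**Figure D3:**
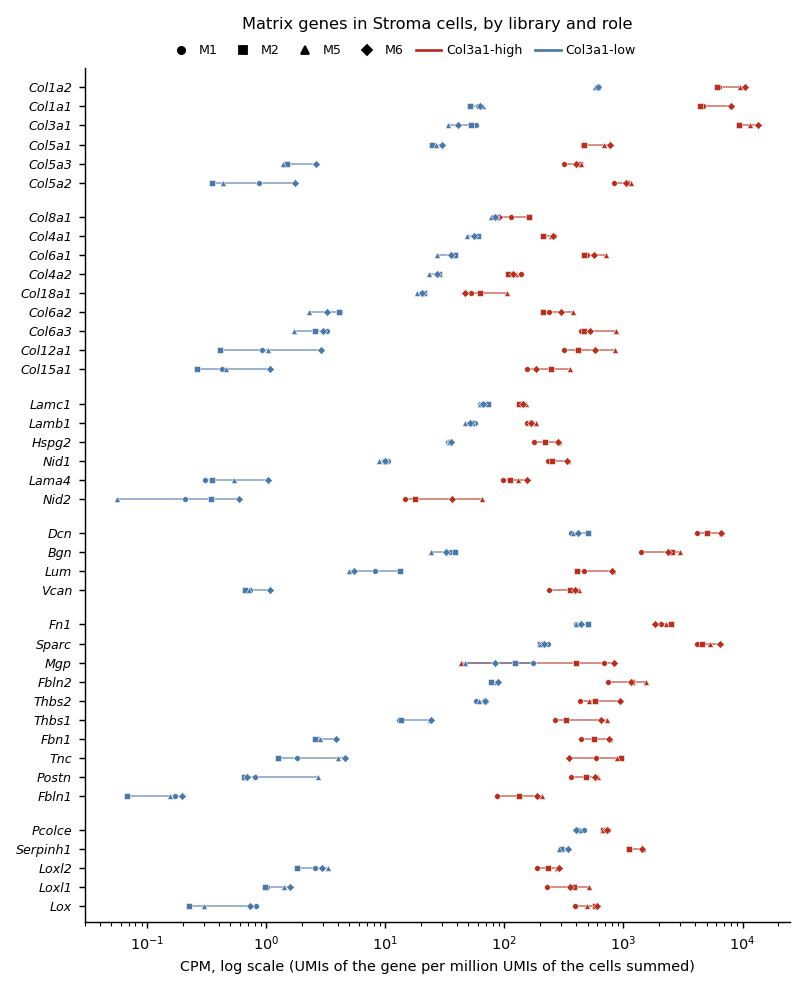
CPM of each of the 40 genes in Col3a1-high and Col3a1-low Stroma on a log axis, with 1 marker shape per library and a line from the lowest to the highest library, grouped by role. The ranges of the classes lie apart for every gene except Mgp, and lie closest for Col8a1, Pcolce and Lamc1.

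The fibrillar collagens were all higher in Col3a1-high cells, at pooled ratios from 12.2 for Col1a2 to 1235 for Col5a2. Col1a2 encodes the second chain of type I collagen and had the most UMIs of the 40 genes in Stroma. Its level was 6359, 6063, 9539.8 and 10449.9 CPM in Col3a1-high cells of M1, M2, M5 and M6. In Col3a1-low cells it was 614, 613, 582 and 616 CPM, so the gene was well detected in both classes. The library levels of the classes did not overlap, which does not speak for single cells. Col1a1, the first chain of type I collagen, ranged from 4406 to 8021 CPM in Col3a1-high and from 51.7 to 66.5 CPM in Col3a1-low cells, a wider gap than that of its partner chain. Col5a2, a chain of the type V collagen that starts fibrils, stood at 837, 1079, 1149 and 1042 CPM in Col3a1-high cells. In Col3a1-low cells it stood at 0.88, 0.35, 0.43 and 1.73 CPM, and 50.6% of those UMIs came from 10 cells. The type V partner Col5a1 had a pooled ratio of 21.3, with 548 against 25.7 CPM, and Col5a3 one of 226, with 375 against 1.66 CPM. Col3a1, which lies 24614 bases from Col5a2 in the annotation and chose the cells, stood at 9253 to 13561 CPM and 33.5 to 57.4 CPM.

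Among the network-forming and other collagens, 8 of 9 genes were counted as higher in Col3a1-high cells, and the exception was the most abundant of them. Col8a1, a short-chain collagen of sheet-like networks, stood at 114, 160, 86.6 and 90.6 CPM in Col3a1-high cells of M1, M2, M5 and M6. In Col3a1-low cells it stood at 80.3, 84.4, 77.1 and 83.3 CPM, a ratio between 1.09 and 1.89 by library. At the other end was Col15a1, a collagen that links basement membrane to the tissue below, at 156, 248, 354 and 185 CPM in Col3a1-high cells. Its Col3a1-low levels were 0.42, 0.26, 0.46 and 1.07 CPM, so most of its Stroma UMIs (82.2%) lay in 244 cells. Col12a1, which sits on fibril surfaces, was close to it, with 466 against 1.09 CPM. The basement membrane collagens Col4a1 and Col4a2, whose gene models overlap by 22 bases head to head on chromosome 8, had ratios of 4.41 and 4.68, and Col18a1, the source of endostatin, one of 3.09. Col6a1, Col6a2 and Col6a3, the chains of beaded filaments, had ratios of 14.8, 70.4 and 192.

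The basement membrane glycoproteins also spanned from nearly even to nearly absent levels. Lamc1, the gamma chain shared by most laminins, stood at 137, 133, 152 and 144 CPM in Col3a1-high cells. Its Col3a1-low levels were 62.2, 73.4, 63.1 and 65.8 CPM, a ratio of 1.80 to 2.39 by library, and the M2 value of 1.80 kept it from being counted. Lama4, the alpha chain of laminins in vessel and muscle basement membranes, stood at 97.7, 111, 130 and 156 CPM against 0.31, 0.35, 0.53 and 1.04 CPM. The beta chain Lamb1 had a ratio of 3.07, and Hspg2, which encodes perlecan, one of 6.40. Nid1 and Nid2 encode nidogens, which bridge laminin to type IV collagen. Nid1 stood at 233, 251, 346 and 335 CPM against 10.5, 9.87, 8.95 and 10.1 CPM. Nid2, the least abundant of the 40 genes, stood at 14.6, 17.7, 65.2 and 36.6 CPM against 0.21, 0.34, 0.06 and 0.59 CPM. Its UMIs were concentrated, with 47.9% of its Col3a1-high and 85.1% of its Col3a1-low UMIs in 10 cells of each class.

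All 4 genes of the proteoglycan group were higher in Col3a1-high cells. Dcn encodes decorin, which binds collagen fibrils and limits their width. It stood at 4185, 5031, 6615 and 6586 CPM in Col3a1-high cells and at 365, 503, 374 and 419 CPM in Col3a1-low cells, the smallest ratio of the group (12.3). Lum, a fibril-binding relative of decorin whose gene lies 46984 bases from Dcn, had a ratio of 63.3, and Bgn (biglycan) one of 59.9. Vcan, a large hyaluronan-binding proteoglycan, stood at 235, 355, 424 and 390 CPM in Col3a1-high cells. It was at 0.74, 0.66, 0.72 and 1.08 CPM in Col3a1-low cells, the largest ratio of the group (412).

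Of the 10 fibre-associated and matricellular genes, 9 were counted as higher. Fn1 encodes fibronectin, a glycoprotein that cells bind through integrins, and was the most abundant of this group in Stroma. It stood at 2081, 2509, 2259 and 1824 CPM in Col3a1-high and at 403, 506, 403 and 443 CPM in Col3a1-low cells, a ratio of 4.88. Fbln1, a fibulin of elastic fibres, had the largest ratio of the group (941). Its levels were 86.1, 132, 207 and 189 CPM against 0.17, 0.07, 0.16 and 0.20 CPM, the latter from 96 UMIs over all 15443 cells. Postn (periostin) and Tnc (tenascin C), both prominent in wounds and tumor stroma, had ratios of 469 and 286, and Fbn1, the microfibril protein fibrillin, one of 201. Sparc, which binds collagen, had a ratio of 22.3, with 4815 against 216 CPM, Thbs1 one of 25.4, Fbln2 one of 12.7 and Thbs2 one of 8.74. Thbs1 encodes thrombospondin 1 and stood at 267, 332, 733 and 650 CPM in Col3a1-high cells. In Col3a1-low cells it stood at 13.0, 13.6, 24.0 and 24.2 CPM.

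Mgp, which encodes a protein that keeps soft tissue from calcifying, was the gene whose library levels overlapped between the classes. Its Col3a1-high levels were 682, 402, 42.9 and 831 CPM in M1, M2, M5 and M6. Its Col3a1-low levels were 173, 123, 46.7 and 83.0 CPM, so Col3a1-high cells were higher in 3 libraries and lower in M5 (ratio 0.92). In Col3a1-high cells 62.3% of its UMIs came from 10 cells, where 12.0% of those of Pcolce did, and without M5 it was counted as higher.

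The enzymes and chaperones had ratios from 1.65 for Pcolce to 882 for Lox. Pcolce, which enhances the trimming of procollagen, was the most abundant of them in Stroma. It stood at 742, 680, 679 and 728 CPM in Col3a1-high and at 468, 412, 432 and 397 CPM in Col3a1-low cells, a ratio between 1.57 and 1.83 by library. Serpinh1, the collagen chaperone HSP47 of the endoplasmic reticulum, had a ratio of 3.95, with 1219 against 308 CPM. The lysyl oxidase Lox, which crosslinks collagen and elastin, stood at 395, 576, 493 and 596 CPM in Col3a1-high cells. It was at 0.82, 0.23, 0.30 and 0.73 CPM in Col3a1-low cells, and 72.7% of its Col3a1-low UMIs came from 10 cells. Loxl1 and Loxl2 had ratios of 286 and 92.0. Thus Pcolce and Serpinh1 were read in most cells of both classes, with a UMI of Pcolce in 98.0% and 92.1% of cells, and Lox mainly in the Col3a1-high class, with a UMI in 51.6% and 0.56%. Loxl2 was higher per UMI in the Col3a1-high class, but 45.8% of its UMIs lay there and 47.3% in the far more numerous Col3a1-low cells.

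Depth differed between classes, so shares of cells with a UMI were also read with each cell thinned to 2000 UMIs, which left out 3 Col3a1-high, 42 Col3a1-low and 180 NK cells. NK cells, which are not known to make fibrillar collagen, were read beside them, at a median depth of 5397 UMIs before thinning. The median share over the 40 genes was 36.7% of Col3a1-high, 4.77% of Col3a1-low and 0.19% of NK cells. Col1a2 was found in 96.7%, 60.1% and 3.98% of them, Col5a2 in 49.0%, 0.14% and 0.02%, and Lox in 36.9%, 0.09% and 0.02%. Without thinning, Col1a2 was found in 98.8%, 93.5% and 10.6%. Pcolce was found in 52.3% of thinned Col3a1-low and 2.96% of NK cells. Col12a1 was found in 0.18% of Col3a1-low cells (exact 95% interval 0.12 to 0.26%) and 0.05% of NK cells (0.0057 to 0.17%), and Fbln1 in 0.06% (0.027 to 0.11%) and 0.02% (6e-04 to 0.13%), so the intervals overlapped. The intervals of Col3a1-low and NK cells also overlapped for Col5a2, Col15a1, Lama4, Nid2, Vcan, Postn, Lox and Loxl1. How often they overlap over all genes was not computed, so no result about the members is read from this.

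Genes whose products share a protein or a step were set against each other as UMI ratios within a class, over 12 pairs. The counts are of 3′ ends, and capture can differ between genes, so a ratio was compared only between classes. Col1a1 to Col1a2 was 0.764 in Col3a1-high cells (exact 95% interval 0.754 to 0.774, counting error only), with a range of 0.727 to 0.841 over the libraries. In Col3a1-low cells it was 0.0959 (range 0.0843 to 0.114), 7.96 times lower. Type I collagen is mostly a triple helix with more of the Col1a1 chain than of the Col1a2 chain. Col5a2 to Col5a1 was 1.77 (1.34 to 2.30) against 0.0306 (0.0142 to 0.0580), and Col5a3 to Col5a1 was 0.685 against 0.0646. Col6a2 to Col6a1 was 0.490 against 0.103, and Col6a3 to Col6a1 was 0.990 against 0.0763. Lama4 to Lamc1 was 0.825 against 0.0071 and Lox to Pcolce 0.672 against 0.0013.

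The type IV chains were the pair whose ratio was nearest in the classes. Col4a2 to Col4a1 was 0.507 in Col3a1-high cells (interval 0.468 to 0.550) and 0.478 in Col3a1-low cells (0.470 to 0.486). By library it lay between 0.469 and 0.519 in the former and between 0.465 and 0.487 in the latter, and it was 0.473 (0.443 to 0.581) over the other labels. Lamb1 to Lamc1 differed less than most pairs, at 1.18 against 0.803.

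**Figure D4:**
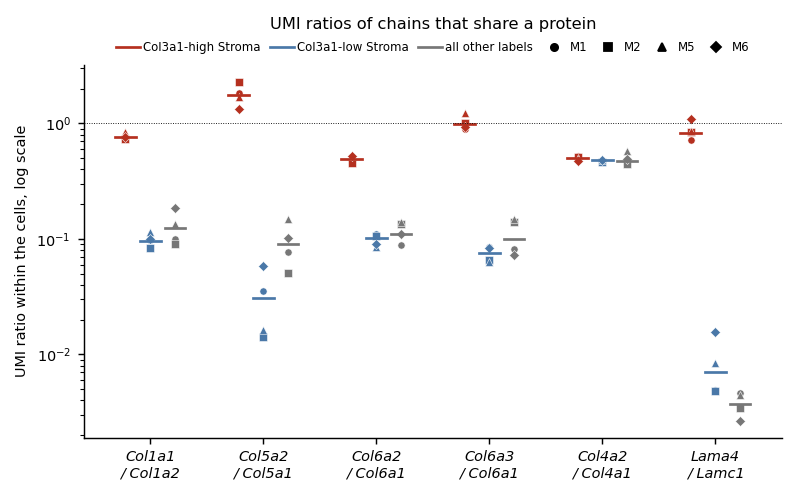
UMI ratios of 6 pairs of chains on a log axis, with a bar for the pooled ratio and a marker for each library, in Col3a1-high Stroma, Col3a1-low Stroma and all other labels. The other 5 pairs stand apart between the Stroma classes in every library, and Col4a2 to Col4a1 lies at 0.507, 0.478 and 0.473.

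The levels were also followed over 8 steps of the Col3a1 share. Just below the threshold (0.0005 to 0.001) lay 330 cells and just above it (0.001 to 0.002) 105 cells. From the former to the latter, Col1a1 stood at 179 and 279 CPM, Col1a2 at 1439 and 1787 CPM, Col5a2 at 21.4 and 79.6 CPM, Lox at 11.9 and 56.1 CPM and Postn at 2.38 and 26.5 CPM. The cells just above the threshold were thus nearer to those just below it than to the 80 cells with a share of 0.01 or more, where the same genes stood at 12521, 14761, 1896, 917 and 1020 CPM in that order. Those 80 cells held 82.5% of the Col3a1-high UMIs of Col3a1, 72.5% of those of Col1a2 and 71.6% of those of Col5a2. The Col3a1-high class was made up differently by library. Of the 105 cells just above the threshold, M1, M2, M5 and M6 gave 69, 19, 7 and 10, and of the 80 cells they gave 31, 14, 16 and 19. The part of this mix in the Col3a1-high levels by library was not tested.

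The genes took different courses over these steps. Dcn was high early, with 180 CPM in cells without a Col3a1 UMI, 1289 CPM at 0.0001 to 0.0005, 3148 CPM at 0.0005 to 0.001 and 5821 CPM at the top. Col1a1 to Col1a2 stayed between 0.0766 and 0.156 through the lower 5 steps and was 0.653, 0.764 and 0.848 in the upper 3. Col4a2 to Col4a1 lay between 0.407 and 0.566 in all 8. Mgp had its highest level in the middle, at 1046 CPM just above the threshold, and stood at 7.15 and 57.6 CPM in the upper 2 steps. Pcolce stood at 361 CPM without a Col3a1 UMI and at 841 CPM at the top, and Col8a1 stayed between 71.2 and 159 CPM. Outside the list, Xist was found in 9.21 to 11.2% of cells in the lower 4 steps, in 17.1% and 48.6% in the next 2, and in 95.8% and 96.3% in the upper 2. Krt20 stood at 44.8 CPM in the lowest and 1.14 CPM in the highest step, and Pdgfra stood at 4.55 CPM in the lowest and 275 CPM in the highest.

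Since Xist divided the Col3a1-high class, the Stroma cells were also split on it, a choice made after seeing the data. The cells with an Xist share of at least 0.0001 and no Ptprc UMI numbered 311, of which 104 were Col3a1-high. Those with neither an Xist nor a Ptprc UMI numbered 11942, of which 103 were Col3a1-high. By the same rule 34 of the 39 genes were higher in the Xist class and 1, Mgp, was lower, where 12.7% of all genes tested were higher and 2.51% lower. The lysyl oxidase Lox stood at 414 against 0.11 CPM, Postn at 417 against 0.10 CPM, Col5a2 at 774 against 0.33 CPM, Fbln1 at 109 against 0.03 CPM and Lama4 at 118 against 0.04 CPM. The Col3a1 split had given Col3a1-low levels of 0.55, 0.99, 0.79, 0.14 and 0.47 CPM for these genes, so the cells without Xist or Ptprc held less of each. Of all UMIs of Lox 80.0% lay in the 311 cells, of Tnc 76.6% and of Col5a2 76.3%.

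Lamb1, Lamc1, Pcolce and Col8a1 were not counted either way in this split. Lamb1, which the Col3a1 split had counted as higher, had a lowest ratio over the libraries of 1.96. Pcolce stood at 414 CPM in the Xist class and 443 CPM in the class without, and Col8a1 at 68.5 and 82.7 CPM. Mgp stood at 43.6 against 143 CPM, with a range over libraries of 4.86 to 81.3 CPM in the former and 52.1 to 193 CPM in the latter. The type I ratio of Col1a1 to Col1a2 was 0.831 against 0.0933, and Col4a2 to Col4a1 was 0.581 against 0.468.

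The composition of the matrix RNA differed with these levels. In Col3a1-high cells the leading genes were Col3a1 (20.2% of the UMIs of the 40 genes), Col1a2 (14.5%), Col1a1 (11.1%), Dcn (10.0%) and Sparc (9.38%). In Col3a1-low cells they were Col1a2 (18.5%), Fn1 (13.4%), Pcolce (13.1%), Dcn (12.7%) and Serpinh1 (9.34%), and Col1a1 held 1.77% and Col3a1 1.51%. The gap between the Col3a1 shares is set by the split. In cells labelled Myeloid, Thbs1 led with 33.5%, followed by Fn1 (20.4%) and Col1a2 (8.89%). In NK cells the order was Col1a2 (17.6%), Fn1 (15.6%) and Pcolce (11.5%).

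Against the 9 other labels with at least 100 cells, 25 of the 40 genes were at least 2-fold higher in Stroma than in the highest other label in every library, where 2.24% of all 17468 genes tested were. With 5 CPM added to both sides in place of 1, it was 16 genes, and 1.36% of all genes tested. The members' median pooled log2 ratio, with 1 CPM added to both sides, was 2.22 and that of all genes tested -0.56. All 6 fibrillar collagens but Col5a3 were counted, 7 of 9 network and other collagens, 2 of 6 basement membrane glycoproteins, 3 of 4 proteoglycans, 4 of 10 fibre-associated genes and 4 of 5 enzymes and chaperones. Col5a3 missed through the 124 B cells, where 2 UMIs gave 4.52 CPM. Thbs1 and Vcan were lower in Stroma than in the highest other label in every library (26.6% of all genes tested were).

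Thbs1 was a Myeloid transcript in these tumors as well as one of Col3a1-high cells. It stood at 254, 390, 328 and 290 CPM in Myeloid cells of M1, M2, M5 and M6, against 16.2, 15.7, 33.0 and 30.6 CPM in all Stroma. Thinned, it was found in 20.4% of Myeloid cells (exact 95% interval 18.9 to 22.03%), 38.2% of Col3a1-high and 3.77% of Col3a1-low cells, and 0.88% of NK cells. Vcan followed the same order at lower levels. Its Myeloid values were 29.2, 31.1, 48.7 and 34.7 CPM and its Stroma values 3.68, 3.10, 6.15 and 5.07 CPM, with a thinned share of 6.28% of Myeloid and 0.12% of NK cells. Of all UMIs, 52.9% of Thbs1 and 40.1% of Vcan lay outside Stroma.

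Lamc1 was the laminin chain that lymphocyte labels also held. The 203 cells labelled T cells had 21.5, 95.9, 91.4 and 115 CPM in the 4 libraries, and NKT cells 50.5, 77.9, 95.1 and 107 CPM, where Stroma had 63.2, 73.8, 64.2 and 66.6 CPM. The NKT values, from 35, 48, 119 and 166 UMIs, lay above Stroma in M5 and M6, close to it in M2 and below it in M1. Those of the T cells label rest on 1, 12, 42 and 62 UMIs, and no level is read from the first. Thinned, Lamc1 was found in 16.4% of NKT (interval 13.8 to 19.3%), 8.74% of T cell EFF and 2.13% of NK cells. Its partner chain Lamb1 stood in a ratio to Lamc1 of 0.199 outside Stroma, from 0.423 and 0.265 in M1 and M2 to 0.0979 and 0.125 in M5 and M6, against 0.803 in Col3a1-low cells (0.735 to 0.905 by library). Fn1 reached 272, 233, 112 and 164 CPM in Myeloid cells, below the 424, 520, 427 and 457 CPM of Stroma in every library. Nid1 and Nid2 were highest outside Stroma in the B cells, from 7 and 1 UMIs, so no level is read from them.

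**Figure D5:**
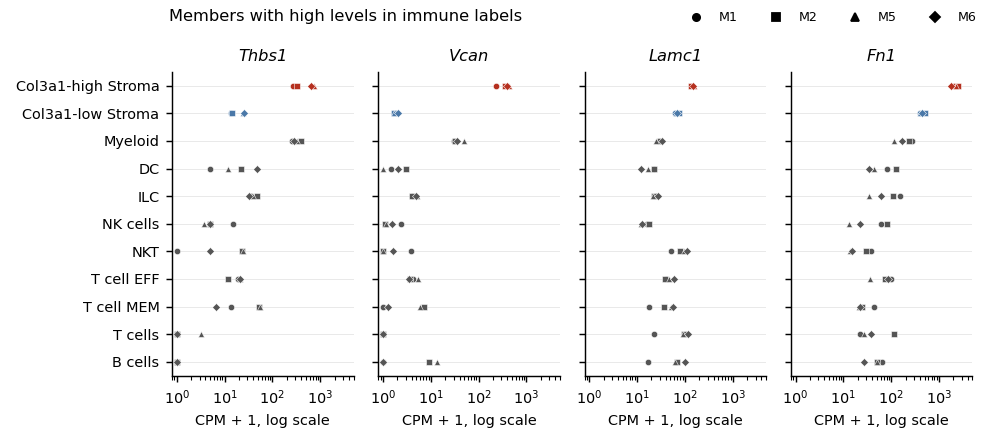
CPM plus 1 on a log axis for Thbs1, Vcan, Lamc1 and Fn1 in both Stroma classes and the 9 labels with at least 100 cells, with 1 marker per library. Myeloid cells stand with Col3a1-high Stroma for Thbs1 and between the Stroma classes for Vcan, NKT and T cells overlap Stroma for Lamc1, and Fn1 is highest in Stroma.

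The 35 genes other than Thbs1, Vcan, Lamc1, Fn1 and Col3a1 had low levels outside Stroma that differed between libraries, in an order that was not seen in the labels with few cells. They summed to 262 and 309 CPM in NK cells of M1 and M2 and to 105 and 112 CPM in those of M5 and M6, against 2998 to 3181 CPM in Stroma. In the 37 cells labelled Stem cells, too few for the comparison of labels, these genes summed to 786 CPM over all libraries. Stroma cells held 84.7% and 84.0% of the UMIs of M1 and M2 and 57.4% and 63.3% of those of M5 and M6. In DC, ILC, Myeloid, NKT, T cell EFF and T cell MEM, as in NK cells, the sums of M1 and M2 both lay above those of M5 and M6, in T cell EFF at 612, 364, 132 and 346 CPM. That order did not hold in T cells (129, 439.6, 172 and 130.1 CPM) or in B cells (187, 148, 262 and 133 CPM). The T cells label had 11, 19, 82 and 91 cells in M1, M2, M5 and M6. The B cells label had 40, 31, 19 and 34, so no order is read from these 2 labels. The part of free RNA in these levels was not tested. Col1a1 to Col1a2 was 0.101 in NK cells, 0.100 in T cell EFF and 0.0967 in Myeloid cells, next to 0.0959 in Col3a1-low Stroma, and 0.168 in ILC. In ILC it was 0.283 in M6 and 0.0940 to 0.132 in the other libraries. Over all Stroma, Col1a1 stood at 117 and Col1a2 at 681 CPM. Not every pair lay next to Col3a1-low Stroma. Col3a1 to Col1a2 was 0.168 in NK cells, 0.115 in T cell EFF, 0.1315 in Myeloid cells and 0.184 in ILC. It was 0.0819 in Col3a1-low and 1.39 in Col3a1-high Stroma, a gap between the Stroma classes that the split sets.

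Beyond the 40 genes, 39 of 40 other matrix genes had enough UMIs in Stroma, and 24 were higher and 1 lower in Col3a1-high cells, with a median pooled ratio of 6.80 over the 39, where 8.47% of all genes tested were higher and 2.69% lower (1 of these genes, Col14a1, is also on the fibroblast marker list). The most abundant in Stroma were Ogn, a small proteoglycan (346 against 140 CPM), Ltbp1, which stores latent TGF-beta in the matrix (37.4 against 85.2 CPM), and Aspn (370 against 77.6 CPM), of which none was counted. Of the 24, Fbn2 and Col11a1 had 6 and 4 UMIs in Col3a1-low cells and reached the minimum only through the class where they were high. Fbn2, a microfibril gene, had the largest ratio (18.1 against 0.0088 CPM), which is therefore not read as a finding, and that of Mfap2, another microfibril gene, came next (89.5 against 0.06 CPM, the latter from 39 UMIs). The gene that was lower was Lama5, an epithelial laminin chain, at 11.4 against 39.6 CPM.

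Of 23 genes of collagen biosynthesis, 22 had enough UMIs, and 12 were higher and 0 lower, again next to 8.47% and 2.69% of all genes tested, with a median pooled ratio of 2.97. The most abundant were Ppib, a prolyl isomerase (837 against 483 CPM), P4hb, a subunit of prolyl hydroxylase (375 against 169 CPM), and P4ha1, its catalytic partner (150 against 90.4 CPM), of which only P4hb was counted. The largest ratio was that of Pcolce2, a relative of Pcolce (51.1 against 0.03 CPM), which with 18 UMIs in Col3a1-low cells reached the minimum only through the Col3a1-high class and is not read as a finding. Adamts2, which cleaves procollagen ends, came next (312 against 0.40 CPM, the latter from 275 UMIs).

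Of 25 matrix receptors, 24 had enough UMIs, 8 were higher and 1 lower, against the same 8.47% and 2.69% over all genes, with a median pooled ratio of 1.92. The most abundant, Sdc4 (305 against 271 CPM), Cd44 (274 against 265 CPM) and the integrin chain Itgb1 (399 against 235 CPM), were not counted. The largest ratios were those of the collagen-binding integrin chains Itga11 (7.50 against 0.06 CPM) and Itga1 (22.6 against 0.51 CPM). Itga6, a laminin-binding integrin chain, was the gene that was lower, at 18.6 against 82.5 CPM.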

How the data were processed

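Cells of dissociated CT26 tumors were enriched for CD45 and sequenced with the Chromium 3′ v3 chemistry. Per the study's methods and the submitters' processing notes, the authors made the deposited counts (whole UMIs per gene and cell) with Cell Ranger 3.0.2 on mm10 (GRCm38), kept cells with over 500 UMIs and gave each cell the label of the best correlated ImmGen profile. The lowest deposited total was 1220 UMIs. Raw counts were used as deposited, and in each of the 33961 cells they added up to the total the authors list. Labels are the authors' own, no cells were removed or clustered, and no doublet caller was run.

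For each library and each label or class, the UMIs of a gene were added up and divided by all UMIs of those cells (CPM). A gene was called higher or lower where its ratio, with 1 CPM added to both sides, was at least 2 or at most 0.5 in each library. It needed at least 30 UMIs in Stroma, or over all cells for the comparison of labels, which used the labels with at least 100 cells. Pooled ratios have no added count, except the median pooled log2 ratios, which have 1 CPM added to both sides. Intervals are Wilson or exact, at 95%, and cover counting error only. Cells were thinned to 2000 UMIs with a fixed seed. Library names were not matched to samples, so no test was made over samples and libraries are not replicates of a treatment.

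Named genes were, in each role, the highest in Stroma, those of largest and smallest ratio and any higher in another label, and from each further list the 3 highest and the 2 of largest ratio, with genes that decide a count of 5 or fewer named after their values were seen. The members and lists were chosen with earlier results of these data known. The Xist split and the Col3a1 threshold of 0.005 were added after seeing the data. Alternatives changed the threshold, pseudocount, filter, way of summing, cells and libraries. Gene positions are from GENCODE M21 and promoter windows from RefSeq (GRCm38.p6), where Mgp, Col12a1, Loxl1, Col5a2, Loxl2, Lum, Dcn, Nid2, Lama4, Thbs1, Lamc1, Fn1, Lox and Col1a1 had no entry. The scripts were tested on simulated data. Python 3.11.15, numpy 2.4.6, scipy 1.17.1, pandas 2.3.3 and matplotlib 3.10.9 were used.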

Additional observations from a re-analysis of the deposited data

How the results depend on the processing

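The count of genes higher in Col3a1-high Stroma was 34 to 37 under every alternative except the split on Pdgfra, Pdgfrb or Dpt, which gave 20 (1.03% of all genes tested), and 35 to 36 with each library left out. Over all genes tested the share higher was 4.50% without a filter, 5.33% with 5 CPM added, 12.7% in the Xist split, 13.1% in pooled sums and 6.32 to 9.62% otherwise. Lamc1 was counted without M2 and Mgp without M5. The count higher in Stroma than in every other label was 25 to 30, except 16 with 5 CPM added, and 25 to 28 with each library left out, where the share of all genes ran from 1.26% without a filter and 1.36% with 5 CPM added to 5.97% in pooled sums, which gave 30. Col5a3, Fn1 and Mgp were counted without M1, Thbs2 without M2 and Col6a1 without M5. Over single genes, 597 of 624 values of the first comparison and 410 of 440 of the second kept the call of the main setting. The setting without a filter is among these and could not change a call, since every member had passed the filter. How often calls were kept over all genes was not computed. In 0 of the members' values was a call of the main setting reversed. Mgp had no call there, but was counted as higher without M5 and in pooled sums and as lower in the Xist split, so its direction depended on the setting.

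The share of the 39 genes' UMIs held by the class followed its definition: 14.7%, 9.79% and 8.64% with Col3a1 thresholds of 0.0005, 0.002 and 0.005, 69.1% with the split on Pdgfra, Pdgfrb or Dpt, 8.72% with the Xist split, 11.015% without Stroma cells that had a Ptprc UMI, 11.4% without cells over 10% mitochondrial UMIs and 10.3 to 13.1% with each library left out. The median share of cells with a UMI followed depth, at 73.8% (Col3a1-high), 33.1% (Col3a1-low) and 1.09% (NK cells) without thinning and at 50.6%, 10.6% and 0.467% at 5000 UMIs. Classes and labels were compared within each library, but no pairing by sample or treatment was possible because no library could be assigned to a sample. For Nid2, Lox, Col12a1, Tnc, Col15a1, Fbln1 and Col5a2, 10 cells held 85.1%, 72.7%, 60.4%, 54.7%, 53.6%, 52.1% and 50.6% of the Col3a1-low UMIs, so their ratios rest on few cells there.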
